A study of Homo sapiens with 2 samples.

Results

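The genes described here are USP12, its homologues USP46 and USP1, the WD40-repeat partners WDR48 and WDR20, and PPM1B, PHLPP1 and PHLPP2, phosphatases reported to be protected by the USP12 complex. They were chosen by symbol, and all 8 were found among the 59125 rows of the count tables, each in 1 row and each with a mean above 1 CPM. The cells were labelled H1944, an established human lung adenocarcinoma line, and each library came from cells with a lentiviral short hairpin RNA in the pLKO.1 vector. The shCON library carried a control hairpin and the shUSP12 library a hairpin against USP12, with 1 library per group. The control is an anti-GFP hairpin in the study's methods but the shCON count column is headed with RFP, and which USP12 hairpin was sequenced is not given in the sources used here. Neither label says whether the cells were a pool or a clone, nor when they were harvested. The knockdown itself is a check of the labels, and the other 7 genes show whether transcripts of the homologues, partners or substrates differed beside it.

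USP12 is a deubiquitinase, a protease that removes ubiquitin from other proteins. Like USP46 and USP1, it has little activity alone and is switched on by binding WDR48, also called UAF1, and the complexes of USP12 and USP46 are stimulated further by WDR20. USP1 acts with WDR48 in DNA repair, where it removes ubiquitin from FANCD2 and PCNA. PPM1B is a metal-dependent phosphatase that acts on IKKβ in the NF-κB pathway, and PHLPP1 and PHLPP2 dephosphorylate AKT. Deubiquitination acts on proteins, so a transcript level shows the supply of mRNA and not the stability of the protein.

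USP12 and USP46 are close paralogues, and whether their reads can be told apart bears on the values of both. Their coding sequences, taken from the canonical transcripts of GENCODE release 44 on GRCh38, were identical at 77.1% of 1092 aligned bases, and 88.5% of 366 aligned codons encoded the same amino acid. The longest run of bases shared by the 2 coding sequences was 20, which was also the longest in the whole transcripts. It lies in exon 4 of 9 in both genes, at chr13:27095638-27095657 in USP12 and chr4:52626055-52626074 in USP46, both on the minus strand. It is shown here in capitals with its flanks, 5′ to 3′, since this is where the paralogues are hardest to tell apart.
USP12: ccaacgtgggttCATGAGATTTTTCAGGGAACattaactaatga
USP46: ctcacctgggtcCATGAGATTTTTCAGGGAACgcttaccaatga
The flanks on either side already differ, so any fragment longer than this run takes in differing bases. The catalytic cysteine sits in a stretch where both genes encode the same amino acids, though several bases differ. The stretch is shown here across the junction of exons 2 and 3. The cysteine codon is in capitals, at chr13:27105930-27105932 in USP12 and chr4:52628149-52628151 in USP46.
USP12: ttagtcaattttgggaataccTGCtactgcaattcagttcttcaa
USP46: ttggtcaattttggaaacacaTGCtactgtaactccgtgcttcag
USP12 and USP1 shared no run longer than 13 bases, and 36.8% of their 364 aligned codons encoded the same amino acid.

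Depth and the make-up of the libraries set limits on all comparisons. The totals were 18249112 counts in shCON and 17475359 in shUSP12. Values are counts scaled to library size, written CPM, and further scaled by TMM factors (a trimmed mean over rows that sets the libraries level), and the bracketed range after a level, percentage or ratio is its exact 95% interval, which covers counting error only. No difference has a replicate check, so no p-value is given, and the libraries are compared rather than the conditions. The libraries also stood apart in other rows, since 119 rows with 50 or more counts in shUSP12 had no more than 3 in shCON, and 1 row showed the reverse. Among 6 epithelial markers the summed level was 7144 CPM in shCON and 6076 in shUSP12. The keratins KRT8 (85596 and 62180 counts) and KRT18 (24132 and 18096 counts) were lower in shUSP12, and KRT7 (13626 and 22378 counts) was higher. Also higher, KRT19 had 32 and 4452 counts, EPCAM 115 and 1566, and CDH1 1026 and 2496. Of 4 lung markers, NKX2-1 had 0 counts in shCON and 312 in shUSP12, SFTPB had 0 in both, and SFTPC and NAPSA had at most 12 in either. The 4 leukocyte markers summed to 0 and 0.164 CPM, the 3 endothelial markers to 0.803 and 1.26 CPM, and the 4 fibroblast markers, led by LUM and DCN, to 74.9 and 94.1 CPM. Both libraries are labelled H1944, and with such differences in markers the files do not settle whether the cells differed in more than the hairpin, which applies to every ratio between the libraries below. The part of these differences in the values was not tested, and in bulk RNA fewer cells with a transcript cannot be told apart from less of it per cell.

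USP12 was the gene of the 8 that differed most between the libraries. The shCON library held 711 counts of it, or 40.8 CPM (37.8 to 43.9), and the shUSP12 library 219, or 11.97 CPM (10.4 to 13.7). The 2 intervals were far apart, and 29.3% of the shCON level was left (25.1 to 34.2), a log2 ratio of −1.76 (−1.99 to −1.55). Rows at least 2-fold lower in shUSP12 made up 3.01% of the 14612 rows that passed a filter of 1 CPM on the mean, and USP12 was the 1 member among them. Rows at least 2-fold higher made up 6.48%, and no member was among those. Of the rows past 2-fold, 68.3% were higher in shUSP12 with TMM factors and 79.6% with scaling to total counts alone. Of the rows past the filter, 64 had a lower ratio than USP12. With scaling to total counts alone, 32.2% of the shCON level was left.

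**Figure D1:**
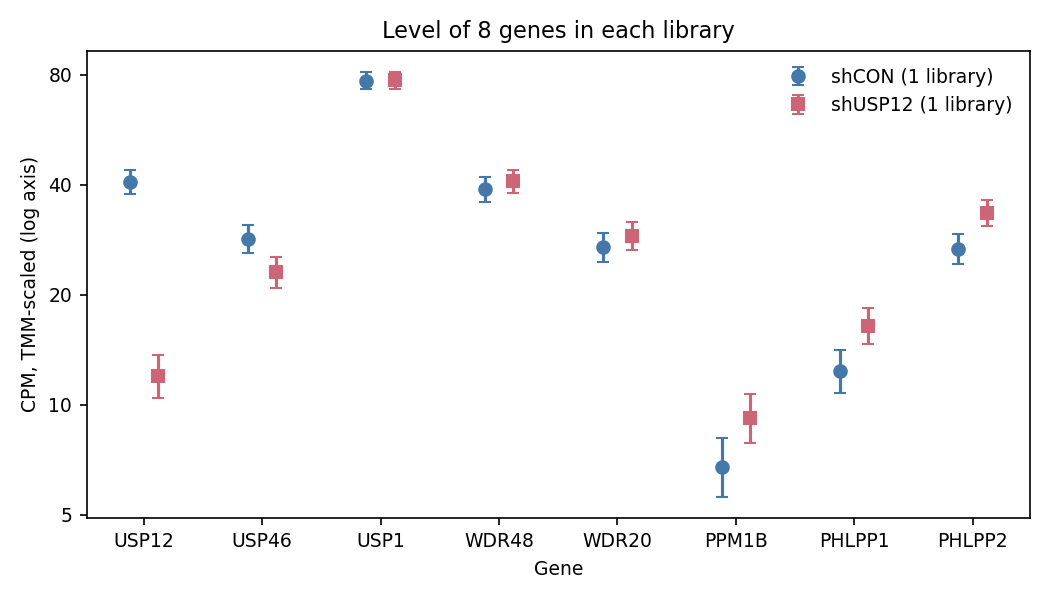
Level of each gene in CPM (vertical log axis) in the shCON library (circles) and the shUSP12 library (squares), with bars for the 95% counting interval and 1 library per group. USP12 lies at 40.8 CPM in shCON and 11.97 CPM in shUSP12, whereas the intervals of USP1, WDR48 and WDR20 overlap between the libraries.

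USP12 has processed pseudogenes that carry copies of its exons, and the authors counted uniquely mapped fragments, so its sequence was searched for repeats after its values were seen. Of the 4796 windows of 31 bases in its merged exons, 35.7% occurred again elsewhere in the GRCh38 chromosomes. In the coding sequence 52.0% of 840 windows did so, against 0 of 828 in the coding sequence of USP46. For the other 7 genes the share over all exons ran from 0% for USP1 to 6.92% for PHLPP2. Of windows of 75 bases, 6.84% consisted of repeated 31-base windows throughout in USP12, and no more than 1.80% in any of the other 7 genes. Where the 1713 repeated windows of 31 bases in the USP12 exons recur was not tested, so they are not all assigned to pseudogenes. The pseudogene USP12PX shared 372 such windows with the canonical USP12 transcript, USP12PY 324 and USP12P2 6. How many USP12 fragments were left out of either count was not tested.

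The genes most like USP12 over the 2 libraries were looked for among 4569 other protein-coding rows with a mean within 2-fold of USP12. Likeness was the difference between log2 ratios. The nearest were CTAG2, a cancer-testis antigen, with 575 and 173 counts and a log2 ratio of −1.79, and CACNG4, an auxiliary subunit of calcium channels, with 997 and 283 counts and −1.88. They were followed by SLFN11, a Schlafen family protein of the DNA damage response, at −1.95, and ACTA2, smooth muscle actin, at −1.99. Among these 4569 rows, 6 had a ratio as low as that of USP12 or lower, and 44 were at least 2-fold lower.

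The next question was whether a homologue was more abundant when USP12 was low. USP46 had 496 counts in shCON (28.5 CPM, 26.01 to 31.1) and 422 counts in shUSP12 (23.1 CPM, 20.9 to 25.4). It was therefore lower and not higher beside the knockdown, at 81.1% of shCON (71.0 to 92.5). Its log2 ratio was −0.30 (−0.49 to −0.11), and 22.1% of all rows past the filter had a lower one. With total counts alone the ratio was −0.17 (−0.36 to 0.02), a range that held 0, beside a median of 0.12 over all rows in that scaling. USP1 had 1345 counts in shCON and 1416 in shUSP12, or 77.2 CPM (73.1 to 81.4) and 77.4 CPM (73.4 to 81.5). The USP1 intervals overlapped almost entirely, and the ratio of the levels was 100.3% (93.0 to 108.1). With total counts alone USP1 had a log2 ratio of 0.14 (0.03 to 0.25), near that median.

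**Figure D2:**
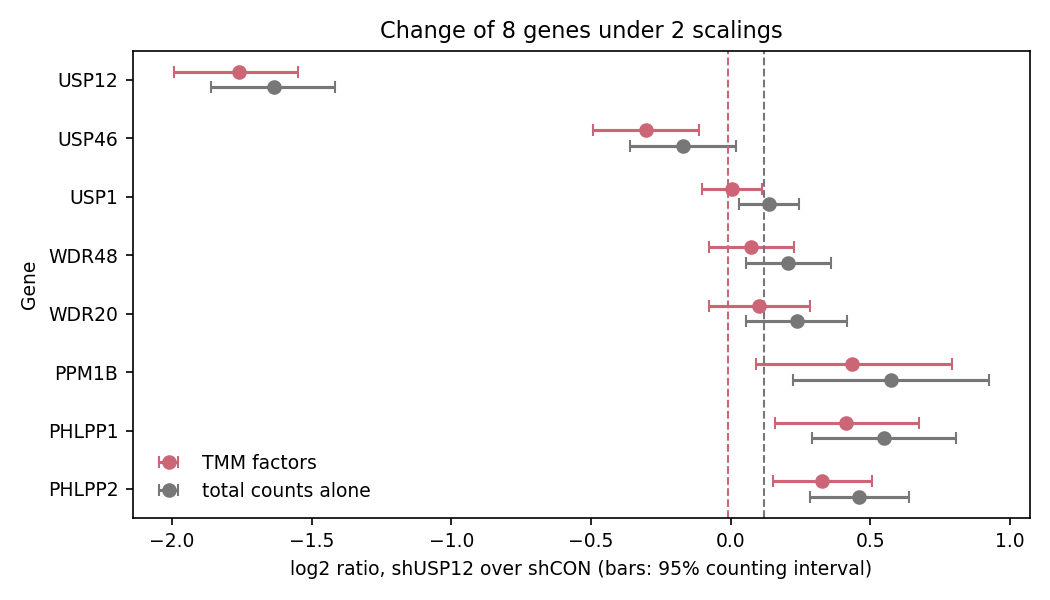
Log2 ratio of shUSP12 over shCON for each gene (horizontal axis) with TMM factors and with total counts alone, with bars for the 95% counting interval. The dashed lines are the medians of all rows past the filter, −0.01 with TMM factors and 0.12 with total counts alone, so the grey values are read against the grey line.

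A ratio of 2 genes in the same library does not depend on how the libraries are scaled to each other. The count of USP12 was 1.43 times that of USP46 in shCON and 0.519 times in shUSP12, a change to 0.362 of the first value (0.295 to 0.444). Against USP1, the ratio went from 0.529 to 0.155, a change to 0.293 (0.246 to 0.347). Directly, USP46 against USP1 went from 0.369 to 0.298, a change to 0.808 (0.694 to 0.941), a pair added after the values were seen. Summed over USP12 and USP46, the closest pair, 1207 counts stood against 641, and 50.6% of the shCON level was left (45.9 to 55.7).

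Per kilobase of exon, USP12 stood above USP46 in shCON and level with it in shUSP12. Levels between genes are given as TPM, a length-scaled count with the same total in both libraries, computed here from the counts and the length of the merged exons, and these carry no TMM factor. In shCON, USP1 stood at 73.3 TPM, USP12 at 29.4 and USP46 at 11.8. In shUSP12 the values were 81.6, 9.58 and 10.6 TPM, and the intervals of USP12 (8.36 to 10.9) and USP46 (9.59 to 11.6) overlapped. As a share of the 3 homologues, USP12 made up 25.7% in shCON and 9.42% in shUSP12. USP46 made up 10.3% and 10.4%, and USP1 64.0% and 80.2%. The summed total includes USP12, so less USP12 by itself raises the shares of the other homologues. The even USP46 share is therefore not an even level, as its TPM was 11.8 in shCON and 10.6 in shUSP12. These levels of USP12 carry the limit of unique mapping given above.

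**Figure D3:**
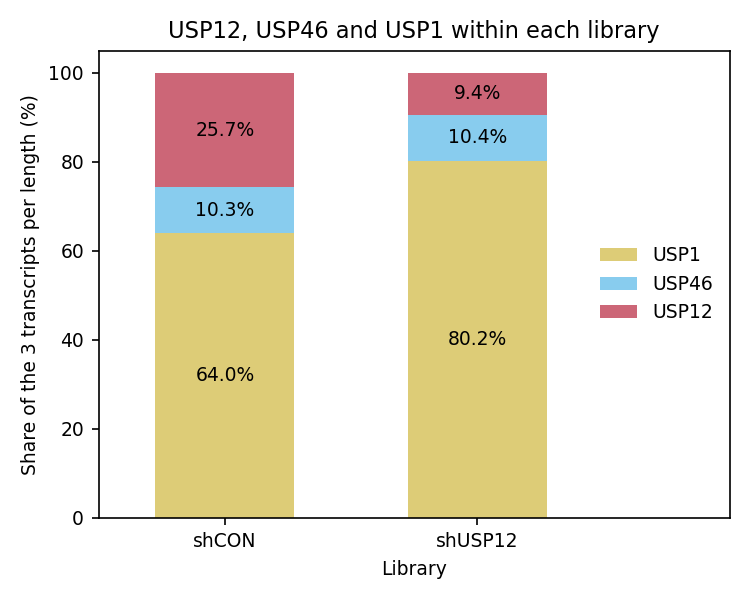
Share of USP12, USP46 and USP1 in their summed TPM (vertical axis, percent) in each library, 1 bar per library. The USP12 share is 25.7% in shCON and 9.4% in shUSP12, the USP46 share 10.3% and 10.4%, and the USP1 share 64.0% and 80.2%. The total includes USP12, so less USP12 raises the other shares.

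The partners that activate these enzymes were at similar levels in both libraries. WDR48, the shared activator, had 678 and 749 counts, or 38.9 CPM (36.0 to 41.9) in shCON and 40.9 CPM (38.1 to 43.98) in shUSP12. WDR20, the second activator of USP12 and USP46, had 471 and 531 counts, or 27.0 CPM (24.6 to 29.6) and 29.0 CPM (26.6 to 31.6). The intervals overlapped for both genes, at 105.2% of shCON for WDR48 (94.7 to 116.9) and 107.4% for WDR20 (94.7 to 121.8). The count ratio of WDR48 to WDR20 was 1.44 in shCON and 1.41 in shUSP12 (change to 0.980, 0.831 to 1.16), another pair added after the values were seen. Both genes overlap exons of neighbours on the opposite strand. WDR48 overlaps GORASP1 (644 and 662 counts) over 1450 bases. WDR20 overlaps MOK (863 and 636 counts) over 194 bases and HSP90AA1 (19706 and 22137 counts) over 197. The kit named in the labels is a stranded one, but the strand setting of the counting is not given in the sources used here. How far fragments of these neighbours entered the counts of WDR48 and WDR20 was not tested.

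With USP12 lower and its partners near their shCON level, the ratio of USP12 transcripts to those of each partner differed. The count of USP12 was 1.05 times that of WDR48 in shCON and 0.292 times in shUSP12, a change to 0.279 (0.231 to 0.336). Against WDR20 it went from 1.51 to 0.412, a change to 0.273 (0.223 to 0.334). DMWD, the paralogue of WDR20, had 885 and 805 counts, with a log2 ratio of −0.21 (−0.35 to −0.07) that was −0.07 (−0.21 to 0.07) with total counts alone.

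The phosphatases were each somewhat higher in the shUSP12 library. PPM1B, with the fewest counts of the 8, had 118 in shCON (6.77 CPM, 5.60 to 8.11) and 168 in shUSP12 (9.18 CPM, 7.85 to 10.7). PHLPP1 had 215 counts (12.3 CPM, 10.7 to 14.1) and 301 counts (16.5 CPM, 14.6 to 18.4). PHLPP2 had 466 counts (26.7 CPM, 24.4 to 29.3) and 614 counts (33.6 CPM, 30.96 to 36.3). PPM1B shares 1548 exon bases with AC013717.1 on the same strand, which had 0 counts in both libraries, so its level is uncertain where fragments fell in both genes. Exons of PHLPP2 overlap those of MARVELD3 on the opposite strand over 1068 bases, a gene with 4 and 21 counts. The CPM intervals did not overlap for PHLPP1 and PHLPP2 and overlapped slightly for PPM1B. Their levels in shUSP12 were 135.6%, 133.4% and 125.5% of shCON for PPM1B, PHLPP1 and PHLPP2, and the log2 ratios were 0.43 (0.09 to 0.79), 0.41 (0.16 to 0.67) and 0.33 (0.15 to 0.50).

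None of these 3 transcripts was lower in shUSP12, under any of the scalings and pseudocounts tried. They lay in the upper part of the distribution but not at its edge. Of all rows past the filter, 83.7% had a lower ratio than PPM1B, 82.8% than PHLPP1 and 78.9% than PHLPP2. The ratio of PHLPP1 to PHLPP2 was 0.461 in shCON and 0.490 in shUSP12, a change to 1.06 (0.855 to 1.32) that included 1. The count of USP12 was 6.03 times that of PPM1B in shCON and 1.304 times in shUSP12, a change to 0.216 (0.162 to 0.289), the lowest of the 7 values. Against PHLPP1 and PHLPP2 the changes were to 0.220 (0.173 to 0.279) and 0.234 (0.192 to 0.285).

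Read together, the 7 genes other than USP12 had log2 ratios from −0.30 to 0.43 with a median of 0.10, beside a median of −0.01 over all rows past the filter. The counting interval lay above 0 for 3 of the 7 (PPM1B, PHLPP1 and PHLPP2), below 0 for 1 (USP46), and held 0 for 3 (USP1, WDR48 and WDR20). Over all rows past the filter it lay above 0 for 27.1% and below 0 for 29.1%, so an interval apart from 0 was common in this pair of libraries. With total counts alone it lay above 0 for 6 of the 7 and below 0 for none, beside 39.8% and 18.6% of all rows, as this scaling lifted the median of all rows past the filter to 0.12. From the 5th to the 95th percentile, the ratios of all rows past the filter ran from −0.80 to 1.25, and the 7 genes lay within that range.

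**Figure D4:**
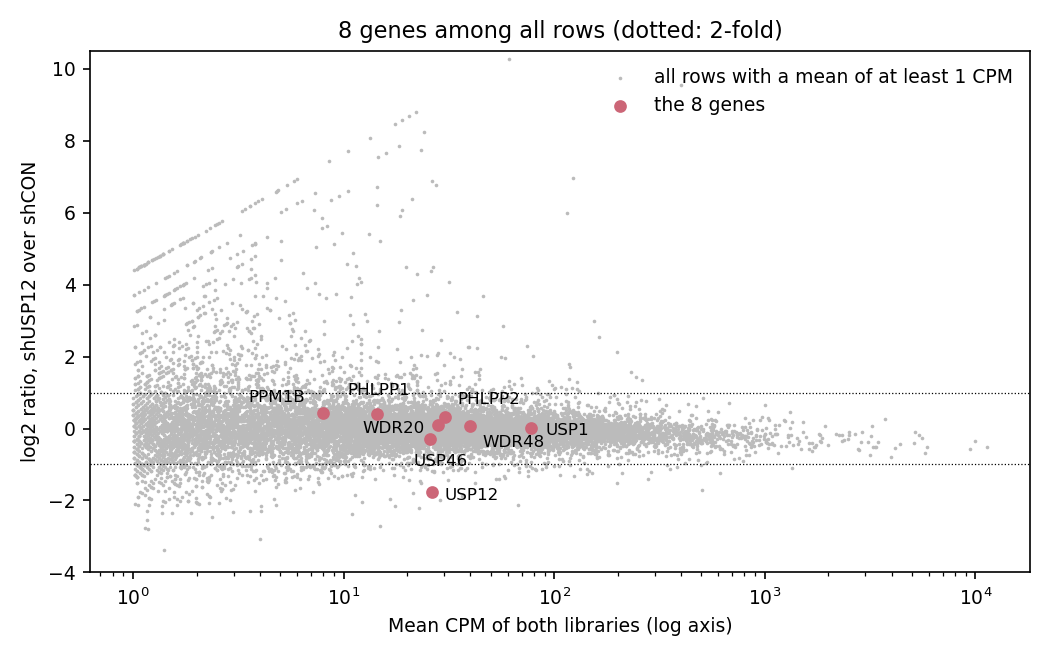
Log2 ratio of shUSP12 over shCON (vertical axis) against the mean CPM of both libraries (horizontal log axis) for the 14612 rows that passed the filter, with the 8 genes in colour and dotted lines at 2-fold. USP12 lies at −1.76, below the 2-fold line, and the other 7 genes lie between −0.30 and 0.43.

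Across the 8 genes the TPM levels spanned a wide range. In shCON the order ran from USP1 at 73.3 and USP12 at 29.4 through WDR48 at 19.1, WDR20 at 13.6, USP46 at 11.8, PHLPP2 at 7.86 and PHLPP1 at 5.01 to PPM1B at 3.50 TPM. The neighbours WDR20 (12.36 to 14.8) and USP46 (10.7 to 12.8) did not differ beyond their intervals. In shUSP12, PHLPP2 at 11.0 (10.1 to 11.9), USP46 at 10.6 and USP12 at 9.58 TPM formed a group in which the neighbours overlapped. Below USP1 the order rests on the length used. With the canonical transcript, which is much shorter than the merged exons for WDR20 and PPM1B, WDR20 stood at 24.1 and USP12 at 19.7 TPM in shCON. PPM1B was then last in neither library, at 5.53 TPM against 4.17 for PHLPP1 in shCON, and at 8.28 TPM against 6.84 for USP46, 6.38 for USP12 and 6.15 for PHLPP1 in shUSP12.

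The genes around USP1 did not share a direction. The 20 genes listed were those of its DNA repair pathway together with ID1, ID2 and ID3. All passed the filter, with a median log2 ratio of −0.04. None was 2-fold higher or lower with TMM factors, beside 6.48% and 3.01% of all rows. The counting interval lay above 0 for 5 and below 0 for 7, near the 27.1% and 29.1% of all rows. Those above were ID1, ID2, ID3, RAD18 and UBE2B, and those below were all DNA repair genes. FANCD2, a main substrate of USP1, had the lowest ratio, −0.55 (880 and 631 counts), followed by FANCC of the Fanconi core complex at −0.50 (634 and 471 counts). The highest were ID2 at 0.95 (222 and 453 counts) and ID3 at 0.41 (1968 and 2747 counts), inhibitors of basic helix-loop-helix factors that have been described as USP1 substrates. With total counts alone, 12 of the 20 were higher and 8 lower, against 7 and 13 with TMM factors. The median of all rows past the filter was likewise higher with total counts alone, at 0.12 against −0.01. The share of all rows on either side of 0 was not counted. With total counts alone ID2 was past 2-fold, at 1.09 (0.86 to 1.33).

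Other reported substrates of USP12 or USP46 were mostly lower as transcripts. Of 8 listed, 6 passed the filter, and 5 of these had a ratio below 0 under TMM factors and under total counts alone. The median was −0.32, beside −0.01 over all rows past the filter, and with total counts alone −0.18, beside 0.12. The counting interval lay above 0 for 1 and below 0 for 4, beside 27.1% and 29.1% of all rows. The NOTCH receptors NOTCH1 (2199 and 1598 counts, −0.53) and NOTCH3 (4209 and 3114 counts, −0.50) were lowest. MDM2, the ubiquitin ligase of p53, was the gene above 0, with 2185 and 2435 counts and 0.09 (0.00 to 0.17), and the next was NOTCH2 at −0.29. NOTCH4 had 2 counts in each library, and GRIA1, a glutamate receptor subunit, had 0 in both.

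In the AKT-mTOR axis, where PHLPP1 and PHLPP2 act, 21 of 22 listed symbols had a row, as NHERF1 and SLC9A3R1 are 2 names of 1 gene. Of these, 20 passed the filter, with a median of 0.02, and none was 2-fold higher or lower, beside 6.48% and 3.01% of all rows. The counting interval lay above 0 for 8 and below 0 for 6, beside 27.1% and 29.1% of all rows. RPS6KB1, the S6 kinase downstream of mTOR, was highest at 0.77 (331 and 594 counts), followed by PIK3R1, a regulatory subunit of PI3K, at 0.66 (172 and 287 counts). PIK3CB, a catalytic subunit of PI3K, was lowest at −0.34 (859 and 714 counts) and AKT2 next at −0.23 (4954 and 4443 counts). With total counts alone the interval lay above 0 for 10 and below 0 for 2, beside 39.8% and 18.6% of all rows.

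PPM1B belongs to the PPM family of phosphatases, and 14 of the other 15 listed passed the filter. Their median was −0.08, with the counting interval above 0 for 4 and below 0 for 4 of the 14, near the 27.1% and 29.1% of all rows. PDP1, the phosphatase that activates pyruvate dehydrogenase, was the single gene 2-fold higher, as were 6.48% of all rows, with 234 and 982 counts and a log2 ratio of 1.99 (1.79 to 2.21). PPM1L followed at 0.47 (111 and 162 counts). PPM1N at −0.42 rested on 35 and 27 counts, and PPM1H at −0.35 on 746 and 616. PPM1A, the nearest relative of PPM1B, had 827 and 806 counts, a ratio of −0.11.

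The kinases and adaptors listed around PPM1B, IKKβ among them, were mostly close to their shCON level, with IKBKG lower. Of 8 listed, 7 passed the filter with a median of 0.05 and a mean of −0.02, and 1 interval lay above 0 and 1 below, beside 27.1% and 29.1% of all rows. TAB2, an adaptor of the kinase TAK1, was highest at 0.14 (0.04 to 0.24, 1472 and 1701 counts). TBK1, an interferon pathway kinase, was next at 0.06 (581 and 638). IKBKG, the regulatory subunit of the IKK complex, was lowest at −0.30 (−0.53 to −0.08, 356 and 303 counts). IKBKB, which encodes IKKβ, was next at −0.10 (1072 and 1050). With total counts alone, 4 intervals lay above 0 and none below, beside 39.8% and 18.6% of all rows. RIPK3 had 0 and 4 counts.

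**Figure D5:**
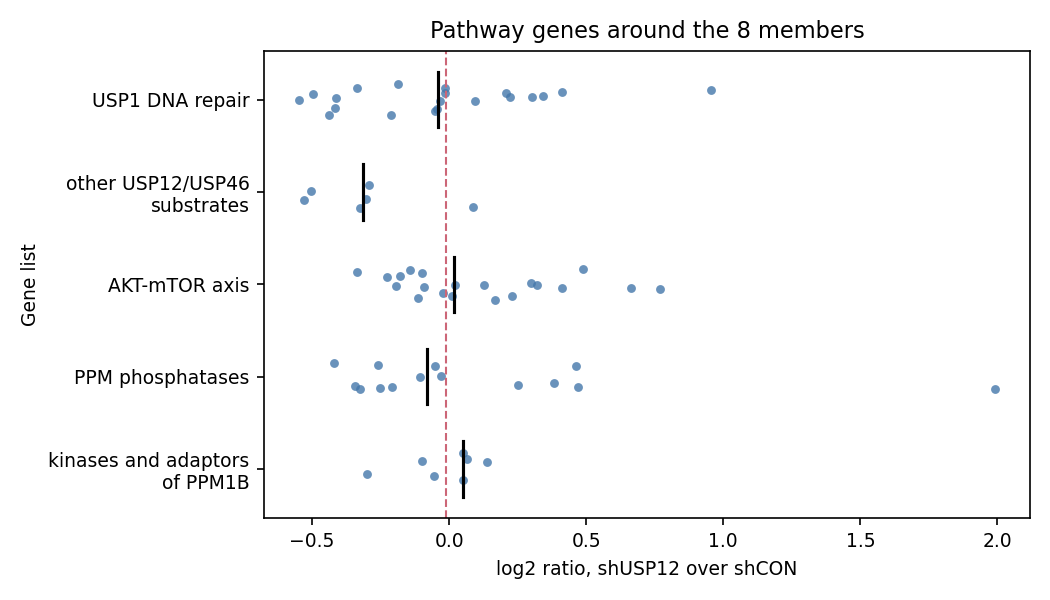
Log2 ratio of shUSP12 over shCON (horizontal axis) for each gene with a mean of at least 1 CPM in 5 gene lists, 1 point per gene, with a black bar for the median of the list and a dashed line for the median of all rows past the filter. The medians run from −0.32 for the other substrates of USP12 or USP46 to 0.05 for the kinases and adaptors of PPM1B, and PDP1 stands alone at 1.99.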

How the data were processed

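RNA sequencing of 2 libraries of H1944 cells was analysed, and each group was taken from the treatment label. The deposited values were raw counts of uniquely mapped fragments per gene, made by the authors after HISAT2 2.0.4 alignment to GRCh38. The methods name StringTie for counting and the submitters' processing notes HTSeq 0.6.0, so which was used is not known. The annotation release is not given in the sources used here. The tables also held 91 lines of text without a count, which were left out. GENCODE release 44 held 99.1% of the Ensembl identifiers.

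TMM scaling in edgeR 4.0.16 (R 4.3.3) gave factors of 0.955 (shCON) and 1.05 (shUSP12) for the CPM values. Log2 ratios carry a pseudocount of 0.1 CPM, which understates changes of low rows, and rows needed a mean of at least 1 CPM. Percentages and 95% intervals of ratios carry none. Intervals are exact Clopper-Pearson intervals and, for changes of ratios within a library, exact conditional intervals of the odds ratio. They cover counting error only, as fragments carry no molecular identifiers. SciPy 1.17.1 and Biopython 1.88 were used. The procedure was also run on counts simulated with counting error alone and with the same scaling. That run cannot speak to other differences between libraries or to the choice of scaling. Genes in the lists were named when changed 2-fold or when among the 2 highest or 2 lowest. The 8 genes and the lists were chosen with earlier results of these data known. FANCD2, ID1, RAD18, UBE2B, PPM1A, NOTCH4, GRIA1, RIPK3, and the marker genes were also read by name. Alternatives covered pseudocounts, scalings, filters, thresholds and lengths, among them DESeq2 1.42.0 size factors.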

Additional observations from a re-analysis of the deposited data

How the results depend on the processing

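With 1 library per group, no replicate could be left out. No paired analysis was possible because there was a single library on each side. Of 80 values of the log2 ratios of the 8 genes under alternatives, 79 stayed inside their counting intervals. USP12 ran from −1.81 to −1.63 and USP46 from −0.35 to −0.17. The exception was USP1 at 0.14 with total counts alone. DESeq2 size factors and the RLE factors of edgeR gave the same value for each gene, so the 80 values are not all separate checks. Staying inside an interval also does not fix its place relative to 0. With total counts alone the intervals of WDR48 (0.05 to 0.36) and WDR20 (0.05 to 0.42) moved above 0, as did that of USP1 (0.03 to 0.25). That of USP46 (−0.36 to 0.02) came to hold 0. Leaving the rows read in only 1 library out of the scaling was added after the data were seen and moved none of the 8 genes out of its interval.

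Rows at least 2-fold higher and lower numbered 947 and 440. They numbered 2713 and 1549 with a filter of 0.1 CPM, 361 and 168 with one of 5 CPM, 3993 and 2447 without a filter, 1744 and 1331 at 1.5-fold and 416 and 38 at 4-fold. Total counts alone gave 1137 and 291, so that 79.6% of changed rows were higher against 68.3%. That scaling moved the list medians to 0.091 for the USP1 pathway, −0.18 for other substrates, 0.15 for the AKT-mTOR axis, 0.052 for PPM phosphatases, 0.18 for PPM1B kinases and −0.074 for DMWD. The mean of the PPM phosphatases was 0.11, against a median of −0.08. What moved them, beyond the scaling itself, was not tested. TPM levels left their intervals in 28 of 32 values under other lengths.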

Other observations

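Rows named after the 8 genes were read as well. USP46-AS1, an antisense RNA at chr4:52659406-52661668 on the plus strand, next to the start of USP46, had 48 counts in shCON and 32 in shUSP12. USP12-AS2 had 4 and 0 counts, at or near the floor of 3 counts, and USP12-AS1, which lies within USP12 on the opposite strand without sharing exons, had 0 in both. The USP12 pseudogene USP12PX had 0 counts in both libraries although its longest run shared with the USP12 transcript was 101 bases. Unique counting leaves out fragments that fall wholly within such a run. USP12PX is 1057 bases long and shares 372 windows of 31 bases with the USP12 transcript. Its 0 counts therefore bear on the parts that differ from USP12 and not on the shared runs.

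PDP1 was the largest difference among the pathway genes outside the 8, at 13.4 CPM in shCON and 53.7 CPM in shUSP12. The related PDP2 was lower, with 488 and 408 counts and a log2 ratio of −0.33 (95% interval −0.52 to −0.14). PIK3R2, a regulatory subunit of PI3K, was listed at 0 in both libraries. In the PI3K and mTOR genes that were not among the extremes, MTOR (1268 and 1773 counts, 0.41) and RICTOR (768 and 1132 counts, 0.49) were higher, while RPTOR had 1770 and 1716 counts. These genes were named after their values were seen.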
